A study of Mus musculus with 48 samples.

Results

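The genes described here encode the proteins of the cytosolic ribosome. They are the rows of the deposited count table whose Ensembl identifier maps to a protein-coding mouse gene with a symbol of the Rps or Rpl type followed by a number, or with the symbol Rplp0, Rplp1, Rplp2 or Rpsa. Kinases such as Rps6ka1 and pseudogene rows were left out by this rule, which used no measured value. It gave 82 of the 38293 genes of the table, of which 32 encode proteins of the small (40S) subunit and 50 encode proteins of the large (60S) subunit. Rpl24 was not matched by the rule and was not analysed here.

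The study sequenced RNA of the dorsal vagal complex (DVC) in the mouse hindbrain, where vagal signals from the gut arrive, and of the mediobasal hypothalamus (MBH). Each sample gave total RNA from a 25 µL aliquot of homogenate (input) and RNA from ribosomes pulled down with an antibody to ribosomal protein S6 phosphorylated at residues 240 and 244 (IP). All mice were male C57/Bl6, 9 weeks old and fasted for 6 h, and were injected into the peritoneum with a volume of 10 µL per g. This held saline, AC3174 (1 µg/kg), AC170222 (labelled 2.5 µg/kg) or, in the combination group, the drugs together. The title of the series names a GLP-1 and CCK combination. The labels spell the second drug both AC170222 and AC710222, and the protocol also lists 10 µg/kg, so its dose is uncertain. Not given are how much of each drug the combination held, how long after injection tissue was taken, and how many mice a sample pools. The labels name no transgene or cell sort, so an IP library can hold RNA from any cell type with phosphorylated S6. With 3 libraries for every treatment, region and RNA kind there are 16 groups, and since nothing says that they came from separate animals, p-values measure the spread between these samples only.

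A ribosome holds 1 copy of most of these proteins, and cells make them in matched amounts. Most of their mRNAs begin with a cytosine followed by a run of pyrimidines, the 5′ terminal oligopyrimidine (TOP) element, through which the kinase mTOR and the RNA-binding protein LARP1 control their translation together. S6 itself is phosphorylated by S6 kinases downstream of mTOR and by other kinases after neuronal activity, which is why pull-down of phosphorylated S6 is used to profile active neurons.

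The annotated starts of these genes were searched for the pyrimidine run. RefSeq promoter sequences on GRCm38.p6 were matched to 62 of the 82 genes. A run was a C followed by at least 4 further C or T letters on the gene's strand. Its C stood at an annotated start in 13 of the 62 and in 800 of 26963 other genes (2.97%), whatever letter came before. With a window of 5 bases on either side of the start, 29 of 62 genes (46.8%) and 21.1% of other genes held such a run. The stretches below are 15 bases before and 15 bases from the annotated start, written 5′ to 3′. Capitals mark the run from its first C at or after the start. Those from Rps6 to Rps27 were picked from the 13 genes with a run at the start. The others complete 2 paralog pairs. The printed set therefore does not show how common the run is.
Rps6 (chr4:86857353-86857382, minus strand): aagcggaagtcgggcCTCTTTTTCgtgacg
Rplp2 (chr7:141447636-141447665, plus strand): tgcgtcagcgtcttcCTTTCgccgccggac
Rpl38 (chr11:114668565-114668594, plus strand): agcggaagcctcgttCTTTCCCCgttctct
Rpl15 (chr14:18270972-18271001, minus strand): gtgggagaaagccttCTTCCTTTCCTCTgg
Rps18 (chr17:33955651-33955680, minus strand): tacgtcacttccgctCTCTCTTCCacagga
Rps27 (chr3:90213634-90213663, minus strand): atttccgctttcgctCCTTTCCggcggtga
Rps27l, first of its annotated starts (chr9:66946071-66946100, plus strand): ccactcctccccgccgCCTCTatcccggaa
Rpl22l1 (chr3:28805493-28805522, plus strand): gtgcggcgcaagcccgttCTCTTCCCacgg
Rpl22, first of its annotated starts (chr4:152325711-152325740, plus strand): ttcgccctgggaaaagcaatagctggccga
The run lies at the start in Rps6, Rplp2, Rpl38, Rpl15, Rps18 and Rps27, and 1 to 3 bases after it in Rps27l and Rpl22l1. Where it lies at the start in these stretches, the letter before is also C or T, so the pyrimidines continue upstream of the annotated start. The printed Rpl22 stretch has no such run, which says only that these letters are not in this window.

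Library totals ran from 29492622 to 95079227 counts in DVC input and from 102116189 to 191252522 in DVC IP. In MBH the totals ran from 36542586 to 80084056 counts in input and from 21782798 to 73940674 in IP. Each DVC IP total was thus above every total of DVC input, MBH input and MBH IP. Depth therefore differed throughout between IP and input in DVC and between the regions in IP. The part of depth in these comparisons and in the region difference was not tested. The number of genes detected ran from 16569 to 18200 in DVC input and from 9925 to 16796 in DVC IP. In MBH it ran from 12853 to 18657 in input and from 6285 to 15913 in IP. Of the 6 libraries with under 12000 genes, 1 was DVC IP (AC3174 sample 3) and 5 were MBH IP (saline 3, AC3174 2 and 3, AC170222 2 and 3). Regional markers matched the labels: in input, 7 of 9 DVC identity genes were higher and 1 lower in DVC, and all 8 MBH identity genes tested were lower there.

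Ribosomal protein mRNAs made up a small share of each library. It was 0.526% to 0.962% of counts in DVC input, 0.661% to 1.83% in DVC IP, 0.802% to 1.63% in MBH input and 0.528% to 1.35% in MBH IP. As summed CPM (counts scaled to a common library size with TMM factors), the median was 7504 in DVC input, 10872 in DVC IP, 10189 in MBH input and 8868 in MBH IP. The ranges of all 4 kinds overlap, and DVC IP saline sample 3, at 19516, is the highest library.

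**Figure D1:**
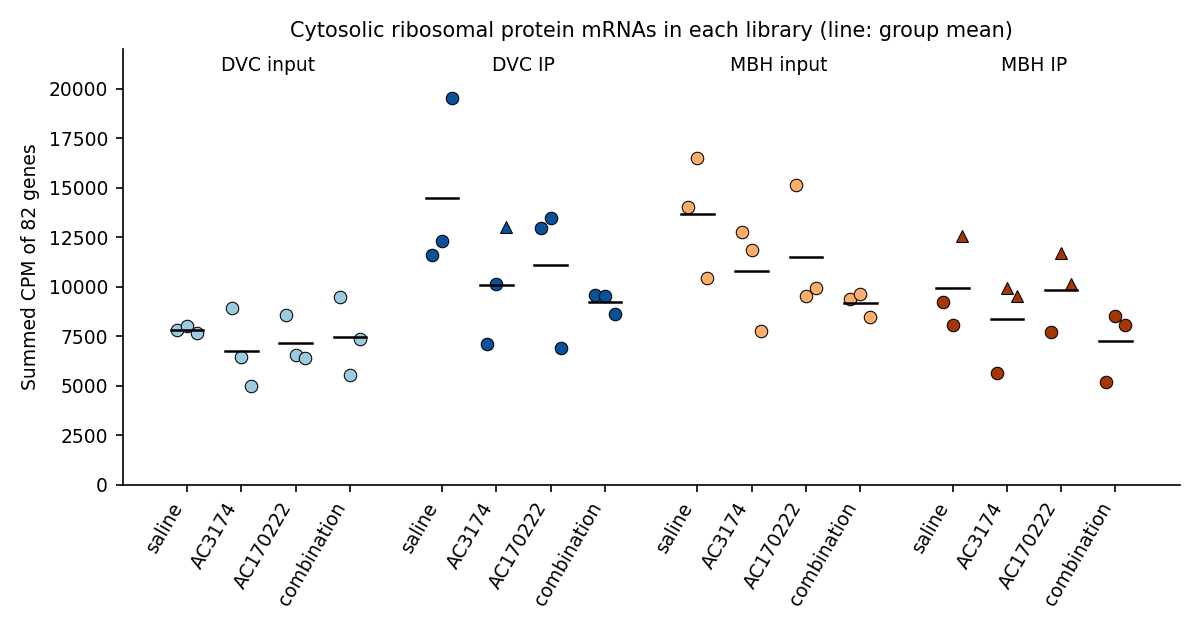
Summed CPM of the 82 genes (y axis) in each of the 48 libraries, by region, RNA kind and treatment (x axis). Lines are means of 3 libraries and triangles are libraries with under 12000 genes; DVC input lies between 4971 and 9457, and the triangles of MBH IP (9533 to 12542) lie above all 7 other MBH IP libraries (5194 to 9239).

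Levels between genes can be compared only per length. In saline input, Rpl41, which encodes the shortest protein of the set at 25 residues, had the highest level per kb of transcript in both regions, 370 ± 30.6 CPM per kb in DVC and 647 ± 173 in MBH (SD, n = 3). Rps29, a small subunit protein, was among the next in DVC at 285 ± 40.1, and Rps14, also of the small subunit, followed in MBH at 484 ± 277, within the spread of Rps29 there (460 ± 122). At the low end, Rps20 had 17.8 ± 1.46 CPM per kb in DVC input, but its annotated transcript, 3706 bases, is the longest of the set (median 740 bases), so its level rests on that gene model. Rpl23a, with a transcript of 560 bases, was also low, at 17.9 ± 3.67 CPM per kb in DVC and 25.6 ± 2.74 in MBH saline input. Rpl10l, a copy of Rpl10 known from testis, had 0 counts in all 48 libraries, which at the summed depth of all libraries allows a level of up to 0.000808 CPM (3 counts, counting error only). Reads were mapped without molecular identifiers, and 1.44% of the counts of members and their named pseudogenes together lay in pseudogene rows. That share was over 10% for Rpl10a alone (10.5%). It counts only reads placed in the named pseudogene rows. Reads lost or split between close copies are not in it, so it does not bound the uncertainty of the members' values.

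Within a group the members moved together. After subtracting group means, the median correlation between 2 members over the 12 libraries was 0.87 in DVC input, 0.71 in DVC IP, 0.86 in MBH input and 0.47 in MBH IP (78 to 79 members with a mean of at least 10 CPM). Over all pairs of genes at that level the same median was 0.00 in DVC input, 0.04 in DVC IP, 0.01 in MBH input and 0.15 in MBH IP. A single component held 85.7% of the members' within-group variance in DVC input and 39.0% in MBH IP. The points of each correlation share their libraries, scaling and depth, so this is a description.

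The first comparison asks which members were more abundant on phosphorylated-S6 ribosomes than in total RNA of the DVC. As a family they were higher in the IP: 34 of the 81 members tested passed an adjusted p under 0.05 in edgeR's quasi-likelihood test and all 34 were higher, against 6.8% of all genes called higher and 20.4% in either direction. The members' median log2 difference was 0.50 (1.42-fold), and that of all 18465 genes tested was -0.37. None was called lower by edgeR, where 13.6% of all genes were. Rpl3l was the single member lower at an unadjusted p under 0.05, and DESeq2 and limma-voom both called it lower. In the samples, the summed IP level exceeded the input in 11 of 12, by a log2 ratio of -0.33 to 1.39 with a median of 0.61. In bulk tissue, fewer cells of a type and less of an RNA per cell cannot be told apart.

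The call was more frequent among large subunit members (25 of 49, median 0.53) than among small subunit members (9 of 32, median 0.45), and the difference between the subunits was not tested. Rpl4 (ENSMUSG00000032399, chr9:64173375-64178666), which lines the exit tunnel for the growing chain, had 291, 367 and 417 CPM as the lowest, median and highest of 12 inputs and 436, 533 and 850 in the IPs. Rpl4 was higher in the IP by 0.54 ± 0.11 (log2 ± SE, adjusted p = 0.00288, edgeR). It was the 1 member whose IP and input ranges did not overlap. Overlap was not counted over all genes, so how unusual this is cannot be said. Rpl41 (ENSMUSG00000093674, chr10:128548114-128549305) had 76.4, 149 and 209 CPM in input and 173, 279 and 898 in IP, with the IP above its own input in 11 of 12 samples. Its difference was 1.07 ± 0.23 (adjusted p = 0.00395, edgeR), and the highest value came from DVC IP saline sample 3.

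Rpl38, a small protein at the surface of the large subunit, rose from a median of 88.6 (44.4 to 119) to 187 CPM (70.9 to 371), a difference of 1.06 ± 0.24 (adjusted p = 0.00422, edgeR). Rpl22l1 (ENSMUSG00000039221, chr3:28805436-28807424), a paralog of the RNA-binding protein Rpl22, rose from 78.9 (44.4 to 95.1) to 147 CPM (82.6 to 254), a difference of 0.95 ± 0.20 (adjusted p = 0.00342, edgeR). For both genes the ranges overlapped and 11 of 12 samples were higher in the IP. Rpl12, at the base of the stalk, Rpl7a, Rpl17 and Rpl19 complete the 8 members with the smallest p, with log2 differences of 0.86, 0.86, 0.87 and 0.65 and adjusted p between 0.00464 and 0.00576 (edgeR). Rpl39, another exit tunnel protein, was higher by 1.04 ± 0.25 (adjusted p = 0.00787, edgeR).

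The mRNA that encodes S6, the protein the antibody binds, did not pass the threshold. Rps6 (ENSMUSG00000028495, chr4:86854660-86857412, minus strand) had 80.2, 114 and 148 CPM in DVC input and 82.6, 160 and 265 in IP, a difference of 0.41 ± 0.17 (adjusted p = 0.0984, edgeR), with 9 of 12 samples higher. The stalk proteins, which recruit elongation factors, were unequal. Rplp2 passed at 0.61 ± 0.21 (adjusted p = 0.0472), whereas Rplp1 had 0.46 ± 0.18 (adjusted p = 0.0698) and Rplp0 0.12 ± 0.20 (adjusted p = 0.828, edgeR). Rpsa, also known as a laminin receptor, had 0.09 ± 0.15 (adjusted p = 0.807), and Rps27a, made as a fusion with ubiquitin, had 0.38 ± 0.17 (adjusted p = 0.128, edgeR). Rps15a, at -0.17, was the 1 abundant member with a negative estimate.

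These counts depend on the model. With each sample's input and IP as a pair, 7 of 81 members stayed under the threshold (Rpl4, Rpl6, Rpl17, Rpl19, Rpl22l1, Rpl38 and Rpl41), and the saline libraries alone gave 0 (median 0.88). Without saline sample 3 the count was 19, and without AC3174 sample 1 it was 57.

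In MBH the same comparison gave values of the opposite sign that did not pass. Of 79 members tested, 0 were called by edgeR, against 0.452% of all genes in either direction (0.16% higher and 0.292% lower). At an unadjusted p under 0.05 there were 21 of 79, all lower, against 1976 of 17461 genes in either direction. DESeq2 called 8 lower (Rpl3, Rpl10, Rpl15, Rpl30, Rps2, Rps14, Rps20 and Rps27a) and limma-voom 0. The members' median was -0.41, near the median of all genes, -0.28, and the summed IP level was above its input in 4 of 12 samples (log2 ratio -1.17 to 0.30, median -0.22). Rps27a (ENSMUSG00000020460, chr11:29545846-29548109) had the smallest p, with 104, 138 and 280 CPM in input and 29.2, 88.0 and 151 in IP, a difference of -0.90 ± 0.26 (adjusted p = 0.129, edgeR). Rpl3, near the peptidyl transferase centre, followed at -0.48 ± 0.14 (adjusted p = 0.132), and Rps14 at -0.84 ± 0.25 (adjusted p = 0.135, edgeR). Ranges of IP and input overlapped for all 3, and Rpl4 (0.12 ± 0.20) and Rpl41 (0.06 ± 0.24) were, with Rpl18, the 3 members with a positive estimate.

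The number of genes detected moved with this ratio. In the 5 MBH samples whose IP had under 12000 genes the log2 ratio of summed IP to input was -0.25 to 0.30, and in the other 7 it was -1.17 to -0.07. In DVC the IP library with the fewest genes (AC3174 sample 3, 9925) had the highest ratio, 1.39, and the one with the most (AC3174 sample 1, 16796) had the lowest, -0.33. Without the libraries under 12000 genes the members' median was -0.94 in MBH, where Rps19 alone was called lower and 72 of 80 members had an unadjusted p under 0.05. In DVC it was 0.49 with 32 called. The part of library complexity in the ratios was not tested.

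**Figure D2:**
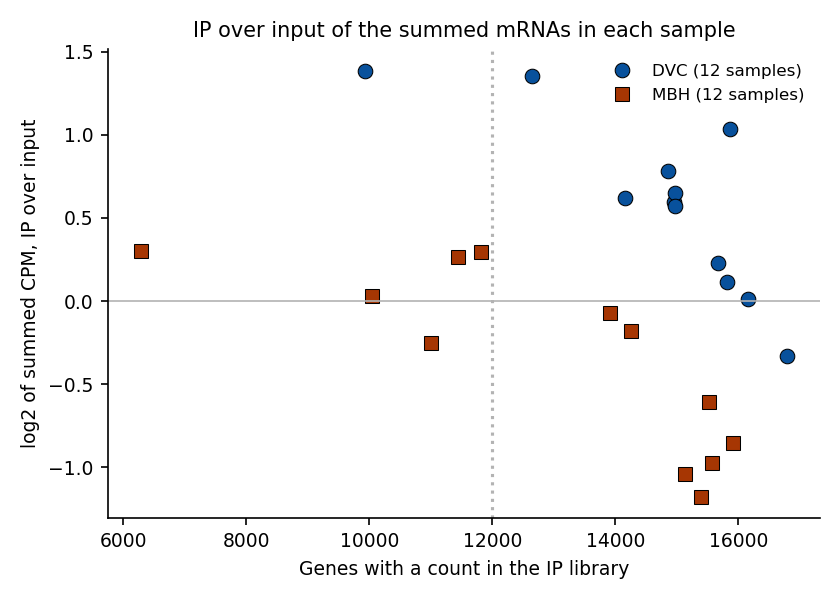
Log2 ratio of the summed CPM of the 82 genes, IP over input (y axis), against the genes with a count in the IP library (x axis), for 12 samples of each region. The dotted line marks 12000 genes; DVC samples run from -0.33 to 1.39 and MBH samples from -1.17 to 0.30.

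The regions were then compared directly, as IP versus input in DVC minus the same in MBH over all 48 libraries. The difference was positive for 79 of 81 members, and 35 were called, all higher in DVC, against 2.33% of all genes in that direction, 2.06% in the other and 4.39% in either. The median of the members was 1.01 and that of all 19416 genes 0.03. By subunit, 10 of 32 small and 25 of 49 large subunit members passed.

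Rpl3 had a difference of 0.88 ± 0.19 (adjusted p = 0.00518), and Rpl22l1 1.35 ± 0.31 (adjusted p = 0.00725, edgeR). Rpl3 went from a median of 273 in input to 329 CPM in IP of DVC and from 392 to 311 CPM in MBH. Rpl15, Rps20, Rps27a, Rpl36a and Rpl12 lay between 1.11 and 1.48 with adjusted p from 0.00726 to 0.00945 (edgeR). Of the other members followed throughout, Rplp1 (1.09 ± 0.27), Rpl39 (1.57 ± 0.39), Rps27l (1.48 ± 0.37) and Rpl10 (0.92 ± 0.26) passed, and Rps6 (0.81 ± 0.26, adjusted p = 0.0767), Rpl41 (1.06 ± 0.34, adjusted p = 0.0655), Rplp0 and Rpsa did not (edgeR).

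The size of this call set was sensitive to scaling and pairing. RLE size factors, which moved the median of all genes by -0.35, gave 4 called members, among them Rpl12, Rpl22l1 and Rpl38. The members' median relative to all genes was 0.98 with either scaling. With each sample as a pair of input and IP, 0 members were called by edgeR, with 61 at an unadjusted p under 0.05. Without the samples under 12000 genes, 66 were called. Leaving out 1 DVC sample gave 10 (AC170222 2), 11 (saline 3), 13 (AC3174 3), 14 (combination 3), 15 (combination 2), 16 (AC3174 2), 19 (AC170222 1) or 23 (combination 1). Leaving out 1 MBH sample gave 10 (AC170222 1), 11 (combination 1), 15 (saline 2), 16 (saline 1 or AC3174 1), 18 (combination 2), 20 (combination 3), 22 (AC3174 2) or 53 (AC3174 3). The other 7 samples changed the count by less than 1.5 times.

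**Figure D3:**
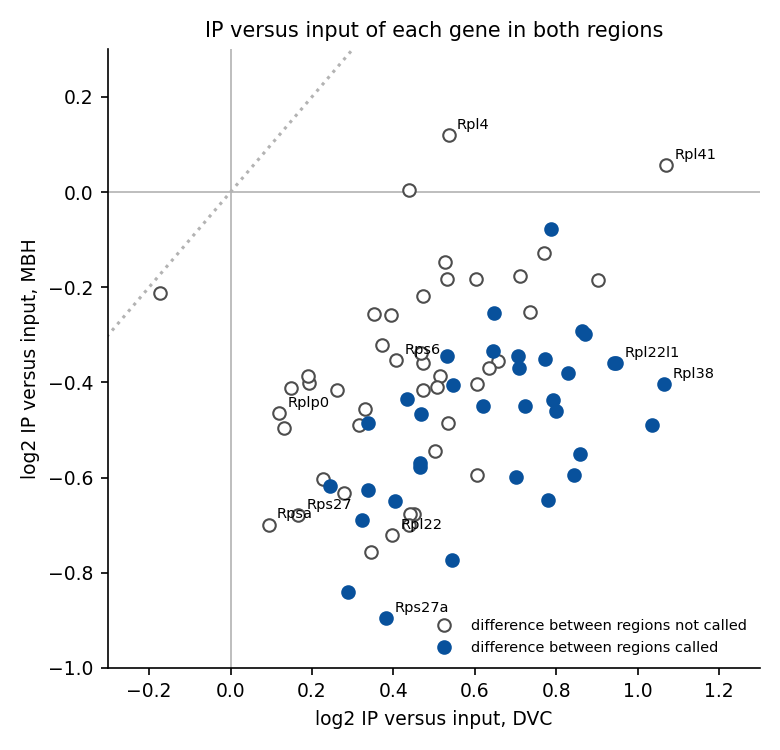
Log2 difference of IP versus input in DVC (x axis) and in MBH (y axis), 1 point per gene tested in both regions, without Rpl3l and Rpl39l, which were near 0 counts. Filled points are genes whose difference between the regions was called, the dotted line is equality, and every point but Rpl4, Rpl41 and Rpl18 lies below 0 in MBH.

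Markers of cell types moved with the IP as well. In DVC IP versus input, 4 of 8 neuron markers were called higher (Snap25, Nefl, Stmn2 and Nefm), 5 of 8 microglia markers and 4 of 8 oligodendrocyte markers lower, and 2 of 8 astrocyte markers higher (S100b and Gfap). Over all genes, 6.8% were called higher and 13.6% lower. Of the neuron markers not called, median CPM was higher in IP for Map2 and Tubb3 and lower for Syt1 and Rbfox3. Of the astrocyte markers not called, it was higher for Aldoc and Aldh1l1 and lower for Gja1, Slc1a2, Aqp4 and Slc1a3. The median log2 difference was 0.73 over the neuron list and -0.03 over the astrocyte list. Summed neuron marker CPM was 11306 to 13374 in DVC input and 14583 to 37275 in DVC IP, while summed oligodendrocyte marker CPM was 6021 to 8973 and 1599 to 7146. Microglia marker CPM summed to 54.7 to 91.5 in DVC input and 0 to 49.6 in DVC IP. In MBH IP versus input, 0 markers of these 4 lists were called by edgeR, and neuron markers summed to 5167 to 6598 in input and 3467 to 9247 in IP. Mitochondrially encoded RNA was lower in DVC IP for 13 of 13 genes, with sums of 4339 to 32799 CPM in input and 10.4 to 1917 in IP, and 3 of 13 were lower in MBH IP. Endothelial markers were lower for 3 of 5 genes and red blood cell markers higher for 2 of 5 in DVC IP, with 0 called in MBH IP. The part of cell type or RNA makeup in the members' differences was not tested.

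Transcript length was set beside the differences too. Across members in DVC, Spearman's rho of the IP-versus-input difference with transcript length was -0.28 (81 genes), and across all coding genes tested it was -0.18. In MBH these values were 0.12 and 0.11. With the mean level in place of length, rho across all coding genes tested was 0.45 in DVC and 0.32 in MBH, and across members it was -0.13 and 0.19. Genes share the libraries, so no test was made.

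The next comparison is of total RNA between the regions. In DVC input, 66 of 81 members were lower than in MBH input and 1 was higher, against 10.2% and 11.7% of all genes and 21.9% in either direction. The members' median was -0.60 (0.66-fold) and that of all 18576 genes 0.10. This held for 28 of 32 small and 38 of 49 large subunit members.

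Rpl10 (ENSMUSG00000008682, chrX:74270812-74273135), which joins the large subunit late in assembly, had 50.5, 73.6 and 102 CPM as lowest, median and highest in DVC input and 98.4, 133 and 184 in MBH input. Its difference was -0.92 ± 0.12 (adjusted p = 2.15e-05, edgeR), and the ranges overlapped between 98.4 and 102. Rps3, at the mRNA entry site, had 157, 218 and 278 CPM in DVC against 272, 320 and 441 in MBH, a difference of -0.63 ± 0.10 (adjusted p = 0.000103, edgeR). Rps19, needed to mature the small subunit, had 70.8, 114 and 142 CPM against 124, 184 and 290, a difference of -0.87 ± 0.14 (adjusted p = 0.00011, edgeR). No member had separate ranges in the 2 regions, although the shift was common to nearly all. Separate ranges were not counted over all genes.

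Rpl21 (-0.77), Rpl30 (-0.87), Rpl22l1 (-0.84), Rpl12 (-0.74) and Rps18 (-0.72) complete the 8 lowest p among members lower in DVC, with adjusted p from 0.000121 to 0.000524 (edgeR). Of the stalk proteins, Rplp1 (-0.73) and Rplp2 (-0.74) were lower and Rplp0 was not called (-0.20 ± 0.10, adjusted p = 0.159). Rps6 was lower by -0.45 ± 0.13 (adjusted p = 0.0187), Rpl41 by -0.67 ± 0.20 (adjusted p = 0.0187) and Rps27a by -0.76 ± 0.14 (adjusted p = 0.000705, edgeR). Rpsa had -0.32 ± 0.12 (adjusted p = 0.0547, edgeR). The saline inputs alone, 3 against 3, gave 0 calls with edgeR but a median of -0.83 and 63 of 79 members at an unadjusted p under 0.05.

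Cell type markers also differed between the inputs. Called higher in DVC were 6 of 8 neuron, 8 of 8 oligodendrocyte and 8 of 8 astrocyte markers, against 11.7% of all genes. For microglia it was 1 of 8, for endothelial cells 0 of 5 and for red blood cells 1 of 5, and 0 markers of these lists were called lower. Summed oligodendrocyte marker CPM was 6021 to 8973 in DVC input and 1421 to 3242 in MBH input, and astrocyte markers summed to 3398 to 4773 and 1434 to 1980. Their part in the members' lower share was not tested.

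On phosphorylated-S6 ribosomes few members were called different between the regions by this test. In IP, 1 of 80 members was called, higher in DVC, against 3.11% of all genes called higher, 2.79% lower and 5.89% in either direction. The members' median was 0.33 and that of all genes 0.11. An unadjusted p under 0.05 was found for 12 of 80 members and for 3103 of all 17230 genes. Without the libraries under 12000 genes, 0 of 81 members were called and the median was 0.63. In that fit 41 members had an unadjusted p under 0.05 (edgeR), all higher in DVC. Rpl22 had 19.2, 63.6 and 114 CPM in DVC IP and 0, 24.2 and 45.5 in MBH IP, with overlapping ranges and a difference of 1.58 ± 0.63 (adjusted p = 0.164, edgeR). DESeq2 called 5 members, among them Rpl22, Rpl36, Rpl38 and Rpl39, and limma-voom called Rpl22 alone. With edgeR the same-numbered libraries of both regions were left out together, in 12 omissions. The count was 2 without AC3174 sample 3 and 0 in the other 11.

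**Figure D4:**
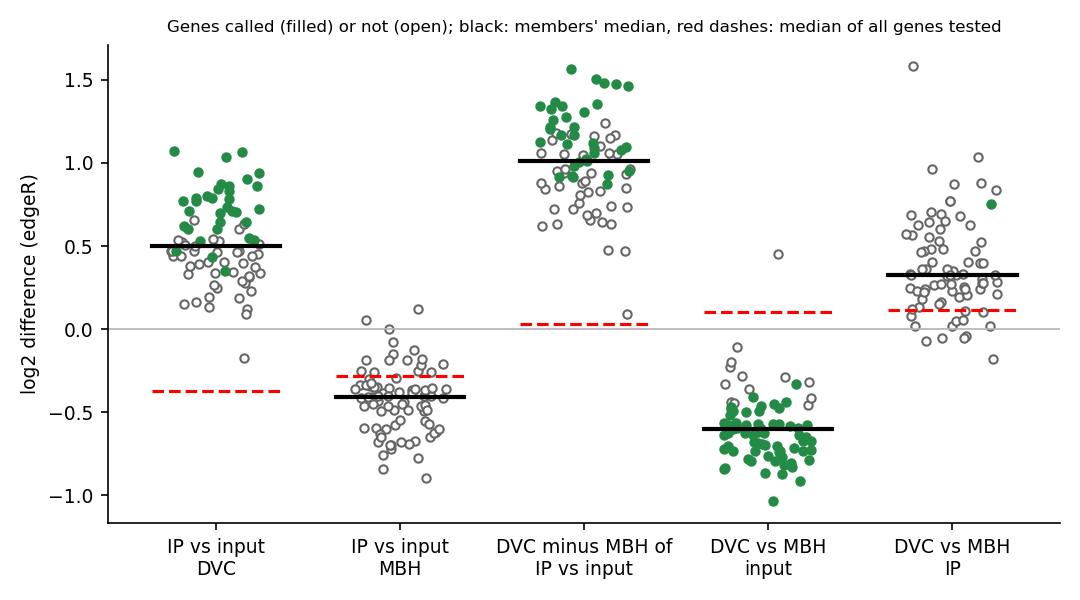
Log2 difference (y axis, edgeR) of each member in 5 comparisons (x axis), without Rpl3l and Rpl39l. Filled points passed an adjusted p under 0.05; black lines are the members' medians (0.50, -0.41, 1.01, -0.60 and 0.33 from left to right) and red dashes the medians of all genes tested.

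Paralogs did not all follow their partners. Rpl22 and Rpl22l1 encode closely related RNA-binding proteins of the large subunit. In input, Rpl22 had 21.4, 47.4 and 68.5 CPM in DVC and 19.2, 30.5 and 59.1 in MBH, a difference of 0.45 ± 0.17 (adjusted p = 0.0719, edgeR), the single positive estimate among well-detected members. Rpl22l1 had 44.4, 78.9 and 95.1 CPM in DVC input and 78.9, 124 and 208 in MBH input, a difference of -0.84 ± 0.15 (adjusted p = 0.000402, edgeR). Per kb in saline input, Rpl22 stood at 88.6 ± 39.4 in DVC and 101 ± 36.9 in MBH, and Rpl22l1 at 153 ± 10.6 and 306 ± 74.8 CPM per kb (SD, n = 3). RLE scaling and DESeq2 called Rpl22 higher in DVC input, and in the saline libraries alone its estimate was -0.17.

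Rps27 and Rps27l, which encode proteins of 84 residues each, differed little per kb in DVC input (85.4 ± 24.9 and 78.8 ± 14.2 CPM per kb, saline). Both were lower in DVC than in MBH input, by -1.04 ± 0.23 (adjusted p = 0.00258) and -0.60 ± 0.17 (adjusted p = 0.0166, edgeR). In DVC IP versus input, Rps27l passed at 0.78 ± 0.26 (adjusted p = 0.0374) and Rps27 had 0.17 ± 0.31 (adjusted p = 0.857, edgeR), a difference between genes that was not tested. Rpl7 and Rpl7l1 were both lower in DVC input, at -0.58 ± 0.13 and -0.49 ± 0.12 (adjusted p = 0.00398 and 0.00486, edgeR). In DVC IP versus input, Rpl7 passed at 0.47 ± 0.15 (adjusted p = 0.0296) and Rpl7l1 had 0.32 ± 0.18 (adjusted p = 0.246, edgeR). Rps4x, carried on the X chromosome, was lower in DVC input by -0.60 ± 0.12 (adjusted p = 0.00129, edgeR), and Rps4l is annotated as a pseudogene and was no member.

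**Figure D5:**
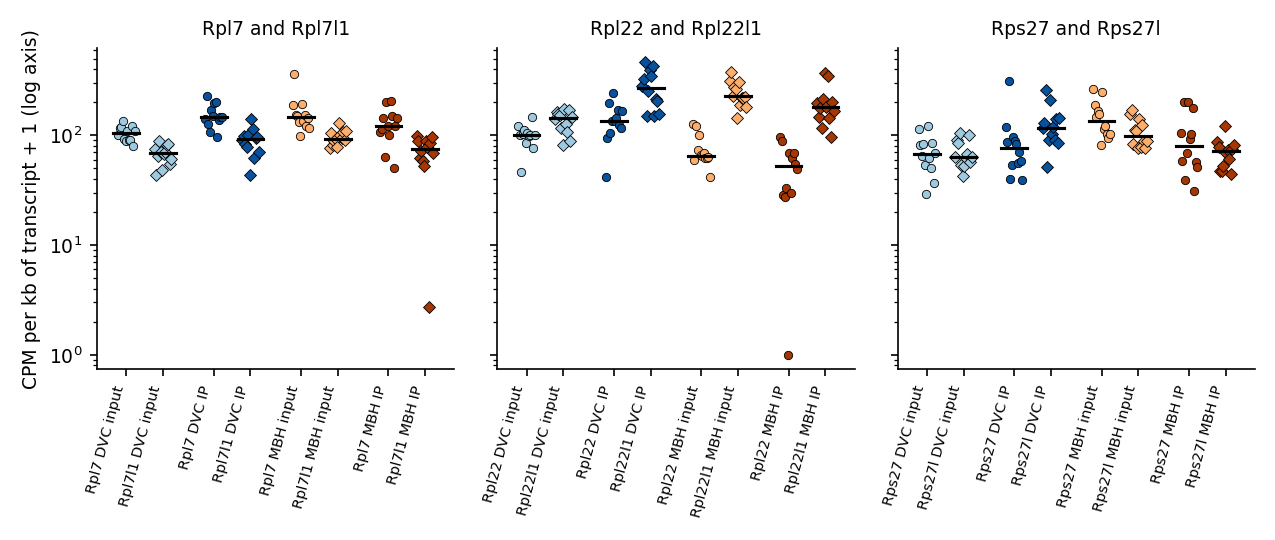
CPM per kb of transcript plus 1 (log y axis) of 3 paralog pairs in the 12 libraries of each region and RNA kind (x axis), with the median as a line. Rpl22l1 (diamonds) lies above Rpl22 (circles) by median in all 4 kinds, and Rpl7l1 (diamonds) lies below Rpl7 (circles) in all 4.

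The rare paralogs were nearly absent. Rpl3l (ENSMUSG00000002500, chr17:24727820-24736143), known from striated muscle, had counts in 9 of 12 DVC inputs (up to 5.62 CPM, median 1.75) and in 2 of 12 MBH inputs (4.96 and 0.68 CPM). It was the 1 member called higher in DVC input (adjusted p = 0.0266, edgeR), and its fitted fold depends on the prior count and is no measure of size. In IP it had counts in 3 of 12 DVC and 1 of 12 MBH libraries. Rpl39l was above 0 in 3 DVC inputs (at most 1.89 CPM), 1 DVC IP library (2.03 CPM) and 1 MBH input.

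Other genes of the pathway were taken from lists of known members. Of 22 TOP and translation factor genes, 8 were higher and 2 lower in DVC IP versus input (median 0.35), against 6.8% and 13.6% of all genes. Those higher included Eef2, the translocation factor (0.60 ± 0.11, adjusted p = 0.00154), Fau, the precursor of Rps30 (0.78 ± 0.20, adjusted p = 0.00986), and Tpt1 (0.62 ± 0.15, adjusted p = 0.00719), and the lower ones were Eif3f and Ybx1 (edgeR). In DVC versus MBH input, 13 were lower and 1 higher, against 10.2% and 11.7% of all genes. Those lower were led by Eef1a1, which delivers aminoacyl-tRNA (-1.02 ± 0.08, adjusted p = 2.71e-08, edgeR). Eef2 was the 1 higher in DVC input (0.24 ± 0.07, adjusted p = 0.0151, edgeR).

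Of 15 ribosome assembly genes, 4 were higher in DVC IP versus input (6.8% of all genes) and 7 lower in DVC than in MBH input (10.2% of all genes). Npm1 is on this list and the previous one. Ncl, nucleolin, was higher in the IP by 1.15 ± 0.18 (adjusted p = 0.00033), and Nop58, a small nucleolar RNP core protein, was lower in DVC input by -1.01 ± 0.13 (adjusted p = 1.39e-05, edgeR). Of 15 mTOR and S6 kinase genes, 1 was higher in DVC IP versus input, near the 6.8% of all genes. It was Larp1, whose protein binds TOP mRNAs (1.01 ± 0.21, adjusted p = 0.00262, edgeR). In input, the S6 kinase genes Rps6kb1 (0.60 ± 0.16) and Rps6kb2 (1.00 ± 0.28) were higher in DVC and Eif4e (-0.61 ± 0.10) and Rheb (-0.40 ± 0.08) lower. These are 2 of 15 in each direction, near the 11.7% of all genes called higher and the 10.2% called lower. In MBH IP versus input, edgeR called 0 genes of the 3 lists, where it called 0.452% of all genes.

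The differences were set beside the pyrimidine run among the matched members. In DVC IP versus input, the 13 with the run had a median of 0.51 with 5 called, and the 48 matched members without it had 0.47 with 20 called. With the run anywhere within 5 bases of the start, the 29 with it had a median of 0.60 with 14 called, and the 32 without it had 0.44 with 11 called. In DVC versus MBH input the medians were -0.60 with and without a run at the start, with 9 of 13 and 41 of 48 called lower. With the window of 5 bases they were -0.59 and -0.63, with 24 of 29 and 26 of 32 called lower. The differences between these sets were not tested.

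The study's question was how AC3174, AC170222 and their combination act, and each was compared with saline in each region and RNA kind, 3 against 3 libraries. No member was called by edgeR in any of the 12 comparisons, where 0% of all genes were called in each. Limma-voom also called 0 members in all 12. DESeq2 called Rpl39l lower in DVC input with AC170222 and with the combination, where it was at 0 in all 3 drug libraries, and Rpl5 lower in MBH input with the combination. The estimates nevertheless leaned to lower values: the members' median by edgeR with all libraries was negative in all 12 comparisons, from -0.07 to -0.73. The sign was not kept in all of them when a sample, a tool or a covariate changed, as given below. The 3 drug groups share their saline libraries within a region and kind.

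In MBH input, saline libraries had 14053, 16513 and 10458 summed CPM. The AC3174 libraries had 12759, 11832 and 7745, the AC170222 libraries 15120, 9520 and 9920, and the combination libraries 9395, 9608 and 8452. Each combination library was below each saline library, while single-drug groups overlapped saline. The members' median log2 difference was -0.36 for AC3174, -0.30 for AC170222 and -0.67 for the combination (all genes 0.01, 0.04 and 0.08). At an unadjusted p under 0.05 there were 3, 2 and 33 of 79 members, against 1427, 1092 and 1424 of all 16622 genes. Rpl5, which carries 5S rRNA into the large subunit, had the smallest p with the combination: its CPM was 168, 214 and 132 in saline and 90.5, 90.0 and 89.8 with the combination, a difference of -0.90 ± 0.26 (adjusted p = 0.532, edgeR). Rpl5 also had the smallest p with AC170222 (-0.67 ± 0.26, adjusted p = 0.709), and Rpl7 with AC3174 (-0.89 ± 0.31, adjusted p = 0.56, edgeR).

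In DVC IP, saline libraries had 11619, 12330 and 19516 summed CPM. AC3174 libraries had 7081, 10124 and 12993, AC170222 libraries 12970, 13475 and 6903, and combination libraries 9556, 9541 and 8620. Here too each combination library was below each saline library, and single-drug groups overlapped saline. This separation of sums was not tested, here or in MBH input. The medians were -0.57, -0.44 and -0.73 (all genes -0.02, 0.03 and 0.07), with 4, 0 and 7 of 80 members at an unadjusted p under 0.05. Over all 15815 genes there were 1041, 830 and 861. Rps19 had the smallest p with the combination, with 177, 114 and 456 CPM in saline and 109, 96.9 and 93.2 with the combination (-1.33 ± 0.50, adjusted p = 0.817, edgeR), and Rps18 with AC3174 (-1.08 ± 0.43, adjusted p = 0.677, edgeR).

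Values in DVC input and MBH IP were smaller or less even. In DVC input the medians were -0.20, -0.11 and -0.07, with 1, 0 and 0 of 81 members at an unadjusted p under 0.05. Over all 17477 genes there were 841, 731 and 940. Rpl36a had the smallest p with AC3174 (-0.67 ± 0.29, adjusted p = 0.993, edgeR). In MBH IP the medians were -0.34, -0.07 and -0.46, with 0 of 79 members at that level in each, against 293, 231 and 127 of 14766 genes. The smallest p there belonged to Rpl15 (-1.18 ± 0.69), Rps14 (-0.68 ± 0.69) and Rpl41 (-0.91 ± 0.54), with adjusted p = 1 for all 3 (edgeR). Leaving out 1 sample, the DVC input medians ranged from -0.47 to -0.05, from -0.28 to -0.01 and from -0.30 to 0.08, the last turning without combination sample 2, and limma-voom gave 0.01 for the combination. In MBH IP they ranged from -0.51 to -0.07, from -0.15 to 0.19 and from -0.71 to -0.29, and AC170222 turned without saline sample 3 or AC170222 sample 1.

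The sample codes hold a number whose meaning the labels do not give. Saline and AC170222 carry the lower numbers and AC3174 and the combination the higher ones, so these groups and the number are nearly confounded. With pairs of neighbouring numbers as a covariate, saline shared a pair with AC3174 or the combination only through its sample 3 and their sample 1, and the direction of some medians turned. The median became 0.29 with AC3174 and 0.43 with the combination in DVC input, and 0.15 with AC3174 in MBH input, and in MBH input with the combination it shrank to -0.14. In DVC IP the 3 medians were -0.83, -0.41 and -0.97 under that model, and in MBH IP they were -1.06, -0.03 and -1.15. Leaving out 1 sample, the combination medians ranged from -0.79 to -0.47 in MBH input and from -0.87 to -0.41 in DVC IP, the weakest DVC IP value being that without saline sample 3. Without that sample the DVC IP medians were -0.26 with AC3174 and -0.07 with AC170222, and without AC170222 sample 3 the latter was -0.17.

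Whether a drug changed the ratio of IP to input was fitted over both kinds of library. By edgeR 0 of 81 members were called in DVC with AC3174, AC170222 or the combination, against 0.0379%, 0.0271% and 0.0379% of all genes. An unadjusted p under 0.05 was found for 0, 1 and 2 members, against 1921, 1665 and 1764 of 18465 genes. The medians in DVC were -0.40, -0.36 and -0.70. Leaving out 1 sample they ranged from -0.77 to 0.20, from -0.53 to 0.01 and from -0.84 to -0.33, turning for AC3174 without AC3174 sample 1 and for AC170222 without saline sample 3. In MBH 0 of 79 members and 0% of all genes were called for each drug. There 0 members had an unadjusted p under 0.05 (959, 922 and 700 of 17461 genes), and the members' medians were 0.02, 0.25 and 0.08. Their sign was not stable: without the samples under 12000 genes they were -0.48, -0.17 and 0.42, and leaving out 1 sample they ranged from -0.36 to 0.43, from -0.0049 to 0.74 and from -0.19 to 0.43. The omissions that made them negative were those of saline samples 1 and 2 and AC3174 samples 2 and 3 for AC3174, saline sample 2 for AC170222, and saline samples 1 and 2 and combination samples 2 and 3 for the combination. DESeq2 called only Rpl3l and Rpl39l in DVC (1, 2 and 1 members), both at 0 in at least 9 of the 12 IP libraries, and limma-voom called 0 throughout. The members with the smallest p were Rps18 (-0.90 ± 0.49), Rpl39l and Rps19 (-1.26 ± 0.55) in DVC and Rpl15 (-0.86 ± 0.60), Rpl6 (0.79 ± 0.56) and Rpl5 (0.92 ± 0.78) in MBH.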

How the data were processed

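The table deposited by the authors holds raw read counts per Ensembl gene for 48 libraries. Per the labels' protocols, cDNA was made with a SMART-Seq v4 kit and libraries with Nextera XT, which keep no strand and no molecular identifiers. The submitters' processing notes name HTSeq 0.6.1p1, TopHat2 2.0.11 and the GRCm38 build without their settings. Reads from overlapping genes on opposite strands cannot be told apart, and reads shared with pseudogenes may be lost or split. Symbols, positions and transcript lengths came from GENCODE M21 (36429 identifiers matched). A gene's transcript was the APPRIS principal one, then the CCDS one, then the shortest.

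Genes were tested with edgeR 4.0.16 in R 4.3.3 by the 2-sided quasi-likelihood F test after filterByExpr and TMM scaling, with all groups of a region or kind in 1 fit. A gene was called at a Benjamini-Hochberg adjusted p under 0.05 over all genes tested. IP versus input was averaged over the 4 treatments. The 81, 79, 81 and 80 members tested in DVC, MBH, input and IP fits are those that passed filterByExpr. Values after ± are SE for log2 differences and SD for levels. Alternatives were RLE size factors, no filter, DESeq2 1.42.0, limma-voom 3.58.1, a block, the number in the sample code, saline alone, and omission of libraries under 12000 genes or of each sample (its input and IP together where both are compared). The scripts were tested on simulated counts. Ratios per sample used log2(CPM + 2) for single genes and plain sums for totals.

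The protocol takes input and IP from 1 homogenate, so libraries of the same treatment and number are taken as pairs, although deviations from the group means correlated by only -0.11 to 0.07 in DVC and -0.09 to 0.09 in MBH (12 samples each, log2(CPM + 2), genes over 10 CPM). No replicate pair of the 48 was a copied library (lowest chi-square per degree of freedom 130.1). Always named were Rps6, the stalk genes, Rpsa, Rpl41, Rps27a and the paralog pairs, with the 8 called members of smallest p per direction in IP and region comparisons, or the smallest p where none was called. Members, lists and rules were chosen with earlier results of these data known. Results of 1 item are not reported here.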

Additional observations from a re-analysis of the deposited data

Results flagged for a closer look

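The difference between IP and input differed between the regions for 35 members, by the test of that difference itself over all 48 libraries (edgeR). With input and IP of a sample paired the count was 0, with 61 at an unadjusted p under 0.05, and with RLE size factors it was 4. The named ones, as log2 values in DVC minus MBH, were Rpl3 (0.88), Rpl22l1 (1.35), Rpl15 (1.11), Rps20 (1.37), Rps27a (1.33), Rpl36a (1.48), Rpl12 (1.46), Rplp1 (1.09), Rpl39 (1.57), Rps27l (1.48) and Rpl10 (0.92). Groups of 3 libraries are too small for a test of single outlying samples.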

How the results depend on the processing

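In IP versus input in DVC (34 members called), limma-voom called 8 and the saline libraries alone 0 of 79, and leaving out a sample gave 19 to 57. In MBH (0 called by edgeR, 21 at an unadjusted p under 0.05), DESeq2 called 8, the fit without libraries under 12000 genes 1, and omission of a sample 0. The difference between the regions (35) became 4 with RLE size factors, 18 with no filter, 19 with limma-voom, 66 without libraries under 12000 genes, and 10 to 53 without a sample. DVC versus MBH input (67) stayed between 54 and 67 when the same-numbered libraries of both regions were left out but was 0 with the saline libraries alone. In IP (1), the count was 0 with RLE, with no filter, with saline alone and without libraries under 12000 genes, 5 with DESeq2, and 0 to 2 without the same-numbered libraries of both regions. For the drugs, DESeq2 called 1 member with AC170222 and 1 with the combination in DVC input and 1 with the combination in MBH input, and 1, 2 and 1 for the change of ratio in DVC; leaving out a sample gave 0 in each of the 18 drug comparisons. Inputs all had over 12000 genes, so that alternative gave no value for them.

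With the replicate block, which pairs input and IP of a sample, 7 members were called in DVC and 0 in the difference between regions. Blocks by sample number, which only share a number, gave 71 for input and 0 for IP between regions and 0 in every drug comparison. Correlations of same-numbered samples across treatments were over 0.1 in 3, 3, 2 and 14 of 18 pairs (DVC input, DVC IP, MBH input, MBH IP), and across regions in 4 of 12 input and 6 of 12 IP pairs (median r of 0.035 and 0.10).

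Signs turned for members near 0 or rarely detected. For Rplp0, IP versus input, DVC turned negative (-0.00639 with RLE, -0.00640 with DESeq2 and -0.00978 with limma-voom), as did Rpsa (-0.026 with RLE and DESeq2). The sign of Rps27 (-0.084 to 0.41 without a sample) and Rpl39l (-4.43 to 0.072 without a sample) also turned there. In MBH it was Rpl41 (-0.71 without libraries under 12000 genes, -0.16 to 0.22 without a sample). In the difference between regions it was Rpl39l (-3.54 to 0.78 without a sample) and Rpl3l (0.19 without libraries under 12000 genes, -2.77 to 2.16 without a sample). In input Rpl22 was -0.17 with saline alone, and in IP Rps27 was 0.30 without libraries under 12000 genes and 0.53 with saline alone. The cause was not tested. Rpl3l and Rpl39l had counts in only some libraries, and Rpl10l had 0 counts in every library.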
